A study of Mus musculus with 12 samples.

Results

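The genes described here are 45 genes of DNA replication and mitosis, among 19057 genes that the annotation used names on the array. They were taken as a list of names, with no measured value in the rule, and the probe of highest mean signal stood for each gene. Of the 45 genes, 39 could be tested. The probes of Ccnb2, Bub1, Nek2 and Kif20a were below the detection filter (detected, at p under 0.05, on 4 or more of the 12 arrays). Ccnb1 and Mki67 were not analysed here, because no probe of the annotation used carries their symbol. Of the 39 tested genes, 38 were detected on all 12 arrays, the exception being Ttk, detected on 1 IL-13, 2 IL-4 and 2 control arrays.

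The cells were cultured mouse hepatic progenitor cells, epithelial precursors in the liver, sorted as DAPI-negative (live) cells for EpCAM, CD24 and CD133 and against CD45, CD31 and TER119. All groups grew with 10% serum, dexamethasone, IL-6, HGF and EGF, and were then kept without serum for 24 hours. Afterwards 4 samples received IL-13 at 50 ng/mL, 4 received IL-4 at 50 ng/mL, and 4 control samples received vehicle with 0.1% bovine serum albumin. The albumin is listed at 0.1% for the cytokine samples too. The labels do not state how long the cytokines were applied. Each sample was hybridised to 1 array, and each of the 2 chips held 2 arrays of every group. On both chips control arrays were at positions A and B, IL-13 arrays at C and D, and IL-4 arrays at E and F. Position on the chip and treatment therefore cannot be told apart. The labels do not say whether the samples of a group are separate cultures or animals, so every p-value refers to the scatter among these 12 samples, and that scatter may be technical. The growth factors of the culture medium were common to all groups.

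A dividing cell passes through a fixed order of steps. In G1, D-type cyclins with CDK4 and then cyclin E with CDK2 release E2F factors, which switch on genes for origin licensing and DNA synthesis. In G2 and mitosis, a later wave of genes, served by B-MYB, the MuvB core complex and FOXM1, builds the spindle, and the anaphase-promoting complex, a ubiquitin ligase, then destroys cyclins and securin to end mitosis. In liver, quiescent hepatocytes and bile duct cells re-enter this cycle after injury. IL-4 and IL-13 are type 2 cytokines that share the receptor chain IL-4R alpha and signal through STAT6.

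Between 18469 and 19869 of 45281 probes were detected on an array, and 10453 genes were tested. The number of arrays limits the precision. Krt19, Sox9 and Cd24a were detected on all 12 arrays, whereas the probe of Epcam was detected on 0 arrays and that of Prom1 (CD133) on 3 IL-13, 1 IL-4 and 1 control arrays. Of 11 progenitor and bile duct genes listed 8 were tested, and 2 were called with each cytokine. Krt7 fell with IL-13 (-0.44, adjusted p = 0.00111) and IL-4 (-0.36, adjusted p = 0.00833). Krt18 rose with IL-13 (0.46, adjusted p = 0.00204) and IL-4 (0.39, adjusted p = 0.0112). The 9 with a probe averaged 8.72 to 8.77 with IL-13, 8.67 to 8.72 with IL-4 and 8.63 to 8.74 in control. Markers of other cell types were mixed. Of 8 hepatocyte genes 4 were tested and 4, Alb among them, were detected on 0 arrays, while Apob, Ttr and Serpina1a were detected on all 12. The hepatocyte list mean ranged from 5.64 to 5.89 with IL-13, 5.58 to 5.87 with IL-4 and 5.54 to 5.61 in control. Apoa1, part of that mean, rose with IL-13 (1.23, adjusted p = 0.000538) and with IL-4 (0.76, adjusted p = 0.0374). Apob, Ttr and Serpina1a differed by 0.30, 0.28 and -0.34 with IL-13, and by 0.35, 0.27 and -0.26 with IL-4. None of them was called with either cytokine. Of 9 stellate cell genes 4 were tested and 5, Col1a1 among them, were detected on 0 arrays. Acta2, detected on all 12, fell with IL-13 (-2.07, adjusted p = 6.54e-05). Des, Pdgfra and Ngfr, the other stellate genes tested, differed by 0.16, 0.05 and 0.04 with IL-13 and were not called. The list mean, which includes Acta2, ranged from 4.53 to 4.71 with IL-13, 4.60 to 4.74 with IL-4 and 4.75 to 4.86 in control. Of 12 leukocyte genes 3 were tested, with 0 called. The 9 with a probe averaged 4.99 to 5.09 with IL-13, 5.01 to 5.05 with IL-4 and 4.95 to 5.08 in control. Cd14 and Csf1r were detected on all 12 arrays and Ptprc (CD45) on 1 IL-4 array. Of 8 endothelial genes 1 was tested, and 5, Pecam1 among them, were detected on 0 arrays, with a list mean of 4.33 to 4.38 with IL-13, 4.31 to 4.38 with IL-4 and 4.36 to 4.40 in control. The part of other cell types in the results was not tested. IL-4 4, IL-4 2 and control 4 had a higher mean log2 hemoglobin signal (8.95, 6.77 and 5.95 over 3 genes) than the other 9 arrays (4.40 to 5.36), and results are given without them where that changes a call. Of the 10 erythroid genes listed 4 were tested, with 0 called and Alas2 detected on 0 arrays. The 7 with a probe averaged 4.42 to 4.57 with IL-13, 4.50 to 6.38 with IL-4 and 4.43 to 5.06 in control.

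Promoters were read for 34 of the 45 genes that had an entry in the RefSeq table (GRCm38.p6), from 250 bases before to 20 bases after the transcription start. Of the 3 windows below, Ube2c was picked as the gene that passed the threshold given further on. Kif11 is the other gene of the spindle group named by rule, and Mcm6 a licensing gene for contrast. Capitals mark 4 motifs on either strand. The CCAAT box is bound by NF-Y. The cell cycle homology motif, TTTGAA, is read as TTCAAA where it lies on the other strand. The E2F-type motif was searched as TTTCGCG or as its variant TTTGGCG.
Ube2c, chr2:164769679-164769948, plus strand: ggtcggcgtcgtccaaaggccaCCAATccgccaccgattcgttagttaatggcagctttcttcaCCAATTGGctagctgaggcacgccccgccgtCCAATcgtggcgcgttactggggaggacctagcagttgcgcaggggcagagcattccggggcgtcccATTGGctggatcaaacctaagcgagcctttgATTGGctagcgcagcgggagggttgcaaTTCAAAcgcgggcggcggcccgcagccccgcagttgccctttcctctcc
Kif11, chr19:37376132-37376401, plus strand: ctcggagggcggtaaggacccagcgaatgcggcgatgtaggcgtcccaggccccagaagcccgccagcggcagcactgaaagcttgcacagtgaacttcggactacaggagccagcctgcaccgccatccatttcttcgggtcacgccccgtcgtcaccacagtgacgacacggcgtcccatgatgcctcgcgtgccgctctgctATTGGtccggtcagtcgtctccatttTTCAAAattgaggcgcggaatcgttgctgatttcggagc
Mcm6, chr1:128359686-128359955, minus strand: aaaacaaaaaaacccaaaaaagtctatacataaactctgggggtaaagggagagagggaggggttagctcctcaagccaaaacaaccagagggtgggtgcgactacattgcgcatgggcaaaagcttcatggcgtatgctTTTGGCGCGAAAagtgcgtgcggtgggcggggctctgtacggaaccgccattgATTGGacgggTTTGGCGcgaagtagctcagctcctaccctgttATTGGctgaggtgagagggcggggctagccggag
In Ube2c a CCAAT and its reverse overlap, and in Mcm6 TTTGGCG overlaps a reverse TTTCGCG.

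The motif content of the early and the late wave was counted over the same windows. CCAAT was found in 16 of 17 G2 and mitosis members with a window (94.1%) and in 9 of 14 G1/S, licensing and S phase members (64.3%), against 41.7% of the 8527 tested genes with a window and 39% of the 27025 genes in the table. TTTGAA was found in 9 of 17 (52.9%) and 1 of 14 (7.14%), against 13.4% of tested genes. An E2F-type motif was found in 1 of 17 (Cdk1, 5.88%) and in 3 of 14 (21.4%), against 4.64% of tested genes. Those 3 were the licensing genes Cdt1, Mcm5 and Mcm6, among 7 licensing genes with a window. Mcm6, printed above, had the most E2F-type matches (3). Mcm2, the other licensing gene named by rule, had 0, and it held 1 TTTGAA. The STAT-type motif, TTC and GAA parted by any 4 bases, was found in 1 of 34 members, Top2a, against 5.83% of tested genes. All motifs were searched on both strands. These are matches of letters, not measured binding.

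Among the 39 tested genes, each read by its brightest probe, Ube2c alone passed the threshold (adjusted p under 0.05 over the 10453 genes). Its signal was lower with each cytokine, and no member was higher at the threshold. With IL-13, 1 of 39 members passed, where 5.73% of all genes did (3.5% higher and 2.23% lower). With IL-4, 1 of 39 passed, where 3.47% of all genes did (2.15% higher and 1.32% lower). For the mean of both cytokines against control it was again 1 of 39, where 6.14% of all genes did (3.51% higher and 2.63% lower). In the submitters' values the balance of all called genes turned round, with 203 higher and 406 lower with IL-13, 120 and 294 with IL-4, and 206 and 597 for the mean. With common quantiles, as used here, they were 366 and 233, 225 and 138, and 367 and 275. A share of 1 in 39 was under the background of all called genes and near that of lower genes. At an unadjusted p under 0.05 there were 5 members with IL-13, where 17.8% of all genes lay under it, 3 with IL-4 (14.1% of all genes) and 3 for the mean of both (17.3% of all genes). Between IL-13 and IL-4, 0 members and 0 genes in all passed (0% of genes). In that comparison 1 member and 852 genes (8.15%) had an unadjusted p under 0.05.

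Ube2c encodes UBE2C (UbcH10), the E2 enzyme that loads ubiquitin for the anaphase-promoting complex at mitotic exit. On the normalised log2 scale it measured 6.26, 6.43, 6.32 and 6.26 on the IL-13 arrays, 6.24, 6.34, 6.22 and 6.33 on the IL-4 arrays, and 6.53, 6.55, 6.64 and 6.55 on the control arrays. Every cytokine array lay below every control array, and the 2 cytokine groups overlapped. Its mean was 6.32 ± 0.08 with IL-13, 6.28 ± 0.06 with IL-4 and 6.57 ± 0.05 in control (SD, n = 4 each). The log2 difference was -0.25 with IL-13 (SE 0.07, adjusted p = 0.0434) and -0.28 with IL-4 (SE 0.07, adjusted p = 0.0289). As folds these are 0.841 (95% interval 0.759 to 0.931) and 0.821 (0.741 to 0.909). The mean of both cytokines gave -0.27 (adjusted p = 0.0106), lower on 8 of 8 cytokine arrays.

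Both comparisons with control use the same 4 control arrays, so they are not separate support for each other. The difference between the cytokines in Ube2c was 0.03 (95% interval -0.11 to 0.18). The direction was the same on both chips, with -0.19 on chip 1 and -0.31 on chip 2 for IL-13, and -0.25 and -0.32 for IL-4. With 2 arrays per group on a chip, none of these 4 differences passed (adjusted p = 0.258 to 0.47). Without the 3 hemoglobin-rich arrays the differences were -0.26 with IL-13 and -0.34 with IL-4, and neither passed (adjusted p = 0.0718 and 0.0808). The IL-13 call was lost without IL-13 1, 3 or 4, IL-4 1, 3 or 4, or any 1 control array (adjusted p = 0.0518 to 0.11). The IL-4 call was lost without IL-4 1, 3 or 4 or control 2 or 3 (adjusted p = 0.0509 to 0.0954). The IL-13 call was also lost with 75th percentile scaling (adjusted p = 0.0504) and the submitters' values (0.0629). With only the 2 groups compared in the fit, both calls were lost (adjusted p = 0.0841 with IL-13 and 0.0534 with IL-4). The call on the mean of both cytokines was lost on each chip alone (adjusted p = 0.25 and 0.196) and held without each of the 12 arrays in turn (adjusted p = 0.00956 to 0.0491). In a bulk sample, fewer dividing cells and less RNA per dividing cell cannot be told apart.

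**Figure D1:**
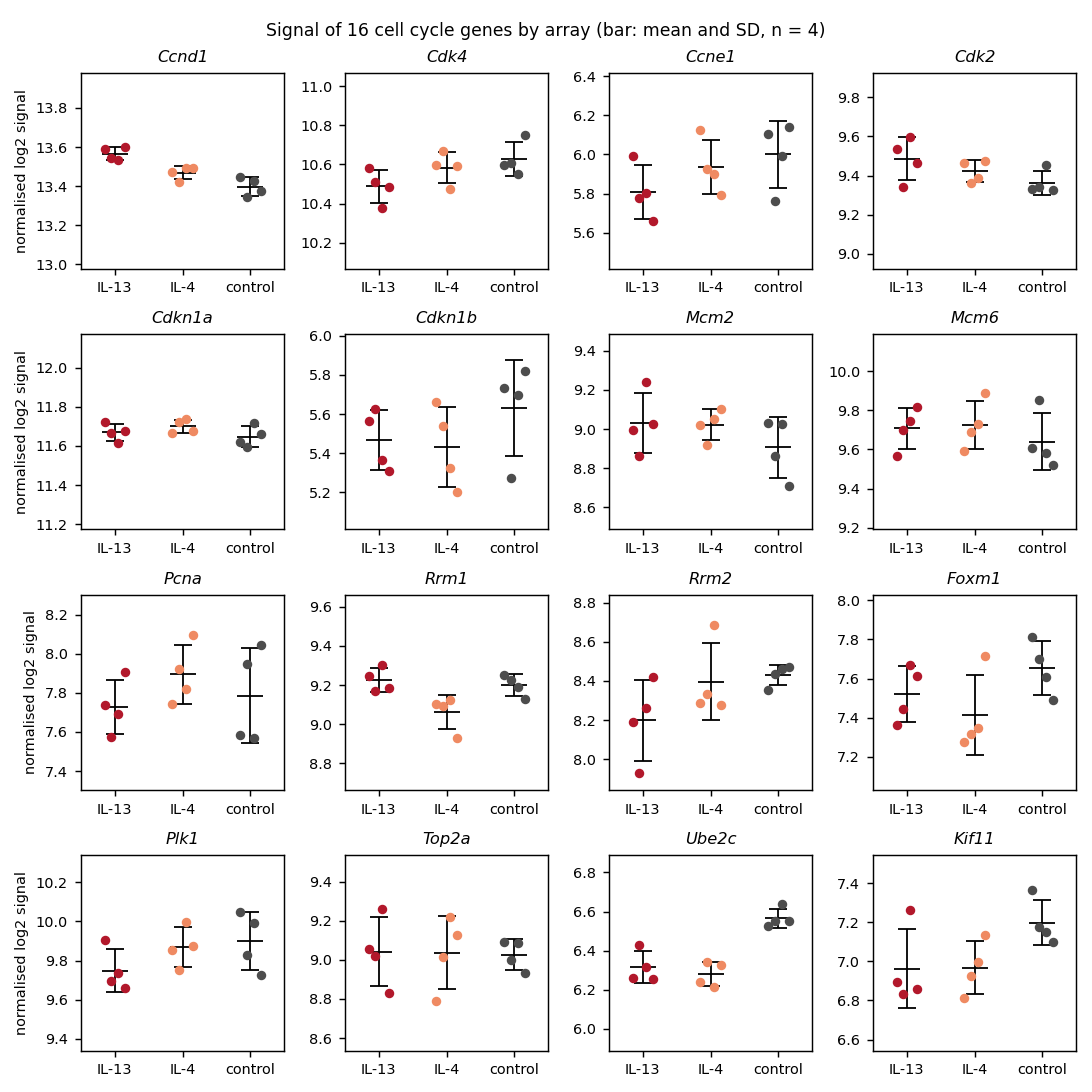
Normalised log2 signal (vertical axis, each panel spanning 1 log2 unit) of 16 cell cycle genes in the IL-13, IL-4 and control groups, with 1 point per array and a bar for the mean and SD (n = 4). In Ube2c all 8 cytokine arrays lie below the lowest control array (6.53), whereas the groups of Top2a, Cdkn1a and Pcna overlap.

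The remaining genes are given by their place in the cycle. The early G1 group is Ccnd1 and Ccnd2, the growth-factor-induced D-type cyclins, and Cdk4, their kinase. Ccnd1 measured 13.59, 13.54, 13.53 and 13.60 with IL-13, 13.47, 13.42, 13.49 and 13.49 with IL-4, and 13.45, 13.34, 13.43 and 13.37 in control. All 4 IL-13 arrays were above the other 8. The difference was 0.17 with IL-13 (fold 1.12, 95% interval 1.02 to 1.23) and did not pass (adjusted p = 0.159), and with IL-4 it was 0.07 (adjusted p = 0.713). The IL-13 difference passed without background correction (0.17, adjusted p = 0.0102). In the submitters' values it was 0.05 with IL-13 and -0.03 with IL-4 (adjusted p = 0.713 and 0.806). Cdk4 measured 10.58, 10.51, 10.38 and 10.49 with IL-13, 10.60, 10.67, 10.48 and 10.59 with IL-4, and 10.60, 10.61, 10.55 and 10.75 in control. Its IL-13 and control arrays overlapped, with a difference of -0.14 (adjusted p = 0.364). Ccnd2 differed by -0.14 with IL-13 and -0.10 with IL-4.

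At the G1/S boundary stand cyclin E (Ccne1, Ccne2), its kinase Cdk2 and the transcription factor E2f1, and 0 of these 4 passed in any comparison. Ccne1 measured 5.99, 5.78, 5.80 and 5.66 with IL-13, 6.13, 5.93, 5.90 and 5.79 with IL-4, and 6.11, 5.76, 5.99 and 6.14 in control. Cdk2 measured 9.54, 9.34, 9.60 and 9.46 with IL-13, 9.47, 9.36, 9.39 and 9.47 with IL-4, and 9.33, 9.34, 9.46 and 9.33 in control. In both genes the groups overlapped. Their differences with IL-13 were -0.19 and 0.12 (adjusted p = 0.326 and 0.424). E2f1 differed by -0.10 with IL-13 and -0.09 with IL-4, and Ccne2 by -0.08 and 0.05.

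The CDK inhibitors were Cdkn1a (p21), which restrains cyclin-CDK complexes downstream of p53 and other signals, and Cdkn1b (p27), which holds cells in quiescence. Cdkn1a measured 11.72, 11.67, 11.62 and 11.68 with IL-13, 11.67, 11.72, 11.74 and 11.68 with IL-4, and 11.62, 11.59, 11.71 and 11.66 in control. It differed by 0.02 with IL-13 (95% interval -0.12 to 0.16) and 0.05 with IL-4 (-0.09 to 0.19), among the narrowest intervals of the list. Cdkn1b measured 5.56, 5.63, 5.37 and 5.31 with IL-13, 5.66, 5.54, 5.33 and 5.20 with IL-4, and 5.74, 5.27, 5.70 and 5.82 in control. Control 2 lay among the lowest cytokine arrays, so the groups overlapped. On chip 1 its differences were 0.09 with IL-13 and 0.10 with IL-4, and on chip 2 -0.42 and -0.50, so the sign was not shared between the chips.

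Replication licensing loads the MCM2-7 helicase onto origins, with Cdc6 and Cdt1 as loaders and Gmnn (geminin) as the inhibitor of Cdt1. None of the 9 licensing genes passed, and the mean difference of the group was -0.00 with IL-13 and 0.04 with IL-4. Their differences spanned -0.06 to 0.12 with IL-13 and -0.09 to 0.15 with IL-4. Mcm2 measured 9.0, 8.86, 9.24 and 9.03 with IL-13, 9.02, 8.92, 9.05 and 9.10 with IL-4, and 9.03, 8.86, 9.03 and 8.71 in control. For Mcm6, whose promoter is shown above, the values were 9.57, 9.70, 9.75 and 9.82 with IL-13, 9.59, 9.69, 9.73 and 9.89 with IL-4, and 9.61, 9.85, 9.58 and 9.52 in control. Groups overlapped in both genes, and the differences of Mcm6 were 0.07 with IL-13 and 0.09 with IL-4 (adjusted p = 0.77 and 0.753). The licensing mean had the opposite sign on the 2 chips with each cytokine, -0.09 and 0.08 with IL-13 and -0.06 and 0.14 with IL-4 on chips 1 and 2.

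The S phase genes were Pcna, the sliding clamp of DNA polymerases, Rrm1 and Rrm2, the subunits of ribonucleotide reductase, and Tyms, which makes thymidylate. Pcna measured 7.74, 7.57, 7.69 and 7.90 with IL-13, 7.74, 7.92, 7.82 and 8.09 with IL-4, and 7.58, 7.95, 7.57 and 8.04 in control. The control arrays of Pcna fell into a low and a high pair that enclosed most cytokine arrays. Rrm2 measured 8.19, 7.93, 8.26 and 8.42 with IL-13, 8.29, 8.33, 8.69 and 8.28 with IL-4, and 8.35, 8.43, 8.46 and 8.47 in control. Its difference was -0.23 with IL-13 (adjusted p = 0.258) and -0.03 with IL-4 (adjusted p = 0.933). Tyms differed by -0.15 with IL-13 and 0.06 with IL-4.

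Rrm1 was the member with the smallest adjusted p between the cytokines. It measured 9.24, 9.17, 9.30 and 9.19 with IL-13, 9.10, 9.10, 9.12 and 8.93 with IL-4, and 9.25, 9.23, 9.19 and 9.13 in control. All IL-13 arrays were above all IL-4 arrays, and all IL-4 arrays below all control arrays. The difference between IL-13 and IL-4 was 0.16 (adjusted p = 0.6). A further Rrm1 probe, with a mean of 9.06 beside 9.16, gave 0.06 between the cytokines (adjusted p = 0.867). With IL-13 against control that probe gave -0.08, beside 0.03 for the probe of highest mean, and with IL-4 -0.14 for both. Rrm2, its partner in the enzyme, differed between the cytokines by -0.20, in the other direction (adjusted p = 0.626).

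The G2 and mitotic entry group holds cyclin A2 (Ccna2), Cdk1, its activating phosphatase Cdc25c, the kinases Aurka and Plk1, the transcription factor Foxm1 and the DNA-untangling enzyme Top2a. None of the 7 tested passed. Top2a measured 9.06, 9.02, 9.26 and 8.83 with IL-13, 8.79, 9.01, 9.22 and 9.13 with IL-4, and 9.09, 9.0, 9.09 and 8.93 in control. Its mean was 9.04 ± 0.18 with IL-13, 9.04 ± 0.19 with IL-4 and 9.03 ± 0.08 in control (SD, n = 4 each), with a 95% interval of the fold of 0.873 to 1.17 for IL-13. A further, dimmer Top2a probe (mean 5.66) gave 0.21 with IL-13 and 0.16 with IL-4, and neither passed (adjusted p = 0.172 and 0.438). Plk1 measured 9.90, 9.69, 9.74 and 9.66 with IL-13, 9.85, 9.75, 10.00 and 9.87 with IL-4, and 10.05, 9.83, 9.99 and 9.72 in control, with overlap throughout.

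Foxm1 drives many G2 and mitosis genes. It measured 7.36, 7.45, 7.67 and 7.61 with IL-13, 7.28, 7.32, 7.35 and 7.72 with IL-4, and 7.81, 7.70, 7.61 and 7.49 in control. All groups overlapped. The difference was -0.13 with IL-13 (adjusted p = 0.569) and -0.24 with IL-4 (adjusted p = 0.294). On chip 1 the differences were -0.35 with IL-13 and -0.46 with IL-4, and the IL-4 one passed on that chip alone (adjusted p = 0.0393). On chip 2 they were 0.09 and -0.02. IL-4 4, the array of highest hemoglobin signal, was the highest of its group in Foxm1, and the part of the one in the other was not tested. Cyclin A2 (Ccna2), which serves both S phase and mitosis, differed by -0.02 with IL-13 and 0.13 with IL-4, and Cdk1 by -0.12 and 0.02. Over the 7 genes the differences spanned -0.15 to 0.11 with IL-13 and -0.24 to 0.13 with IL-4.

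The largest group covers the spindle, the kinetochore, the checkpoint and mitotic exit. Besides Ube2c it holds Cdc20, an activator of the anaphase-promoting complex, the checkpoint kinases Bub1b and Ttk, Aurkb and Birc5 (survivin) of the chromosomal passenger complex, the centromere histone Cenpa, the motors Kif11 and Kif23, and the spindle factor Tpx2. With IL-13, 10 of 10 tested genes had a difference below 0, where 51.4% of all genes did, and 1 of 10 passed. Their median difference was -0.14, beside -0.01 over all genes tested. With IL-4, 8 of 10 were below 0, where 53.5% of all genes were, with a median of -0.06 beside -0.01. These 10 genes were read on the same arrays and are not separate replicates. Apart from Ube2c, the differences with IL-13 spanned -0.24 (Birc5) to -0.03 (Bub1b), and none of those 9 passed. The mean of the group, with Ube2c included, stayed below 0 without each array in turn. It lay between -0.16 and -0.11 with IL-13 and between -0.11 and -0.04 with IL-4. Without the 3 hemoglobin-rich arrays it was -0.16 with IL-13 and -0.13 with IL-4.

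Kif11 is the motor (Eg5) that pushes spindle poles apart. It measured 6.90, 6.84, 7.26 and 6.86 with IL-13, 6.81, 6.92, 7.0 and 7.14 with IL-4, and 7.36, 7.18, 7.15 and 7.10 in control. Except for IL-13 3 and IL-4 4, the cytokine arrays lay below the control arrays. The difference was -0.24 with IL-13 (adjusted p = 0.216) and -0.23 with IL-4 (adjusted p = 0.297). Without IL-13 3 the IL-13 difference was -0.33 and passed (adjusted p = 0.0467). On chip 1 the differences were -0.41 with IL-13 and -0.40 with IL-4, and on chip 2 they were both -0.06.

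Birc5 was picked out after its values were seen. It measured 10.14, 9.98, 9.84 and 9.97 with IL-13, 9.97, 10.25, 10.20 and 10.20 with IL-4, and 10.26, 10.12, 10.18 and 10.33 in control. IL-13 1 lay inside the control range and the other IL-13 arrays below it, and 1 IL-4 array, IL-4 1, lay below it too. The difference was -0.24 with IL-13 (adjusted p = 0.119) and -0.07 with IL-4 (adjusted p = 0.806). In the submitters' values the IL-13 difference was -0.30 and passed (adjusted p = 0.0287).

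**Figure D2:**
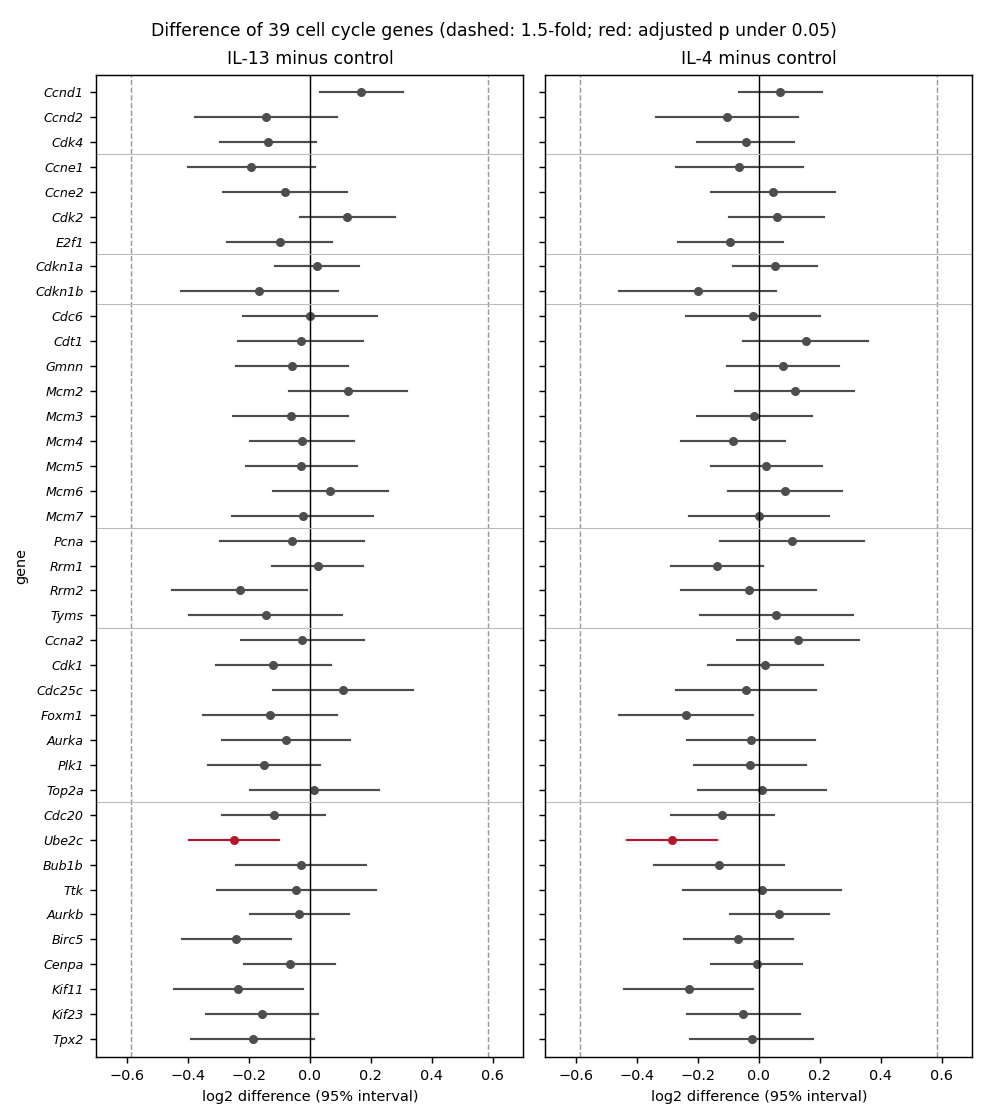
Log2 difference of each of the 39 tested genes, IL-13 minus control on the left and IL-4 minus control on the right, with 95% intervals from the limma fit; genes are ordered by role and grey lines part the groups. Every interval lies inside the dashed lines at 1.5-fold, and Ube2c (red) alone passed the threshold.

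Read as limits, the intervals were narrow. With IL-13 and with IL-4, the 95% interval of 39 of 39 tested members lay within 1.5-fold of no change, as it did for 95.7% and 96.8% of all genes. The median SD within groups was 0.13 for the members and 0.13 for all genes. These limits hold for the probe chosen and for the signal after an offset of 16, which pulls differences of dim probes toward 0.

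As a whole, 31 of 39 members were below 0 with IL-13 (median -0.06) and 23 of 39 with IL-4 (median -0.02), where 51.4% and 53.5% of all genes were below 0. Between IL-13 and IL-4, 26 of 39 were below 0 (median -0.05), where 47.4% of all genes were. The counts depended on the scaling. In the submitters' processed values, which move the median of all genes to -0.02 with IL-13 and -0.05 with IL-4, 35 and 34 of 39 were below 0, and 32 and 29 lay below the median of all genes. With IL-13, 2 members had arrays that did not overlap with control (Ccnd1 higher, Ube2c lower), where 10.9% of all genes did not overlap (4.92% lower). With IL-4 there were also 2 (Rrm1 and Ube2c, both lower), where the background was 8.44% (4.11% lower). Between IL-13 and IL-4 there were 2, Ccnd1 and Rrm1, both higher with IL-13, where 5.31% of genes did not overlap (2.07% lower). All 8 cytokine arrays lay on 1 side of the control arrays in 1 member, Ube2c, where 4.89% of all genes did so (2.08% lower). Over both directions, each of these shares of members was under its background.

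**Figure D3:**
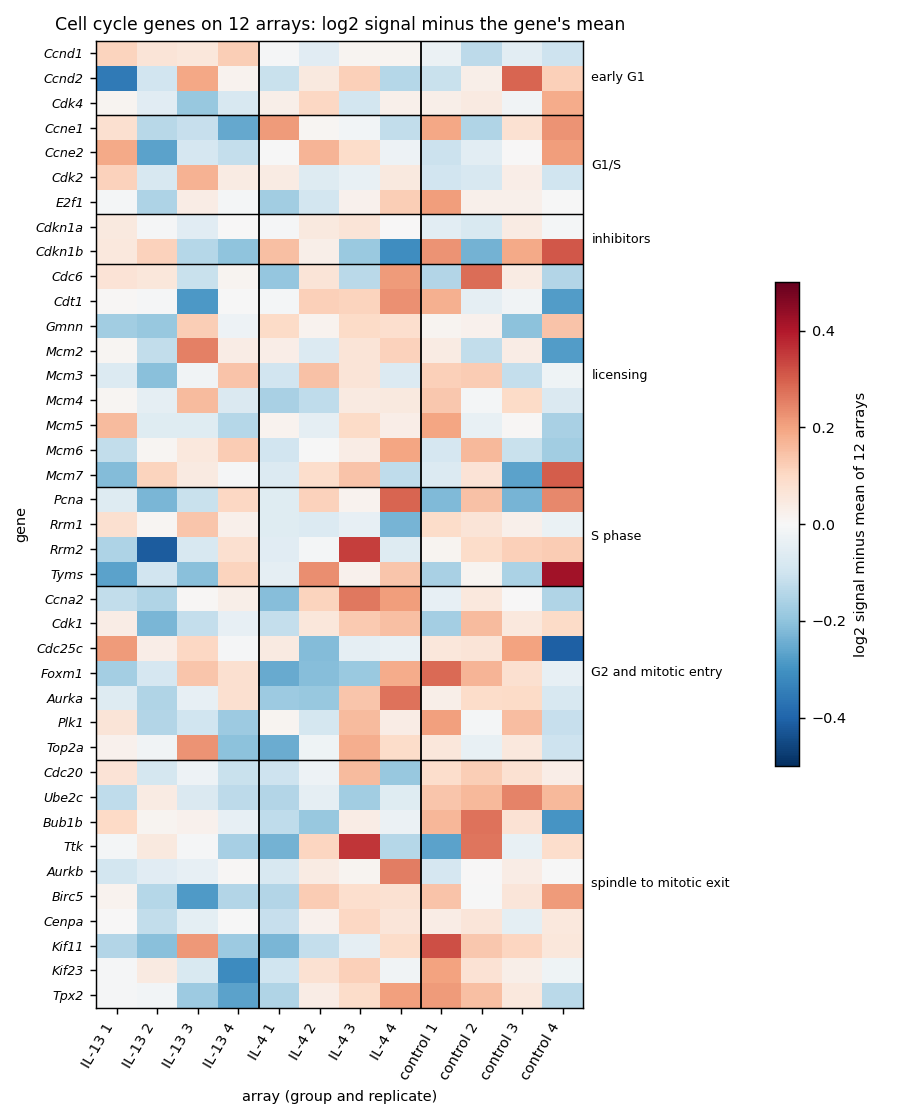
Signal of the 39 tested genes on each array, as log2 signal minus the mean of the gene over the 12 arrays (colour scale -0.5 to 0.5), with arrays in columns and genes in rows by role. The row of Ube2c is below its mean on most cytokine arrays and above it on the 4 control arrays; Kif11 stands out on IL-13 3 (7.26) within its group.

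The 2 chips did not always give the same picture. The sign of the difference was shared by both chips for 20 of 39 members with IL-13 and 13 of 39 with IL-4, beside 61.4% and 54.7% of all genes. The spindle and mitotic exit mean was -0.14 on chip 1 and -0.13 on chip 2 with IL-13, but -0.18 and 0.01 with IL-4. For G2 and mitotic entry the IL-13 mean was -0.12 on chip 1 and 0.01 on chip 2, and the IL-4 mean -0.17 and 0.12. On a scale where each gene's 12-array mean is 0, the G2 mean was -0.00, -0.11, 0.03 and -0.03 on the IL-13 arrays, -0.14, -0.08, 0.09 and 0.13 on the IL-4 arrays, and 0.06, 0.07, 0.09 and -0.11 on the control arrays. The groups overlapped, and control 4, one of the hemoglobin-rich arrays, was the lowest of its group. The spindle group mean was -0.02, -0.05, -0.05 and -0.14 with IL-13, -0.14, 0.00, 0.07 and 0.03 with IL-4, and 0.10, 0.12, 0.06 and 0.01 in control. All 4 IL-13 arrays lay below all 4 control arrays, while IL-4 arrays spread across both. The mean of all 39 tested members, the spindle genes included, was parted in the same way. It was -0.08 to -0.01 with IL-13, -0.08 to 0.06 with IL-4 and 0.01 to 0.05 in control.

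**Figure D4:**
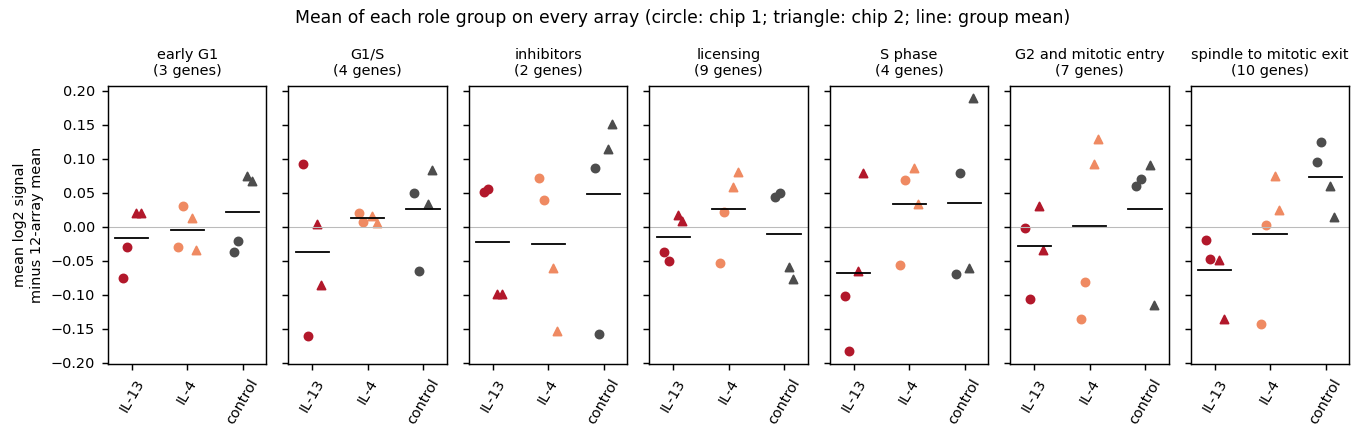
Mean of the genes of each role group on every array, as log2 signal minus the 12-array mean of each gene, with circles for chip 1, triangles for chip 2 and a line for the group mean. In the spindle to mitotic exit panel the IL-13 arrays (-0.14 to -0.02) lie below the control arrays (0.01 to 0.12), and in the other panels the groups overlap.

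Several genes had more than 1 detected probe, which reads the same RNA again. There were 19 such genes with 52 probes, and in a fit of all 19915 detected probes the probes of a gene had 1 sign in 14 of 19 genes with IL-13 and 12 of 19 with IL-4. In this fit the 3 probes of Ccnd1 were all above 0 (0.16 to 0.28 with IL-13, 0.07 to 0.23 with IL-4). One of them passed for the mean of both cytokines (0.25, adjusted p = 0.038). The 3 probes of Birc5 gave -0.27 to -0.24 with IL-13 and -0.07 to 0.02 with IL-4. The 4 probes of Kif23, a motor of the central spindle, gave -0.28 to -0.16 with IL-13. With IL-13 the probes lay farthest apart in Mcm7, where the brighter probe differed by -0.02 and the dimmer by -0.52 (adjusted p = 0.0409). That dimmer probe measured 6.81, 6.54, 6.01 and 6.53 with IL-13, 6.83, 6.88, 6.75 and 6.73 with IL-4, and 7.22, 6.67, 6.97 and 7.13 in control. IL-13 3 was the lowest and the IL-13 and control arrays overlapped. Ube2c had no further detected probe. Kif23, Mcm7 and Birc5 were singled out after their values were seen.

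**Figure D5:**
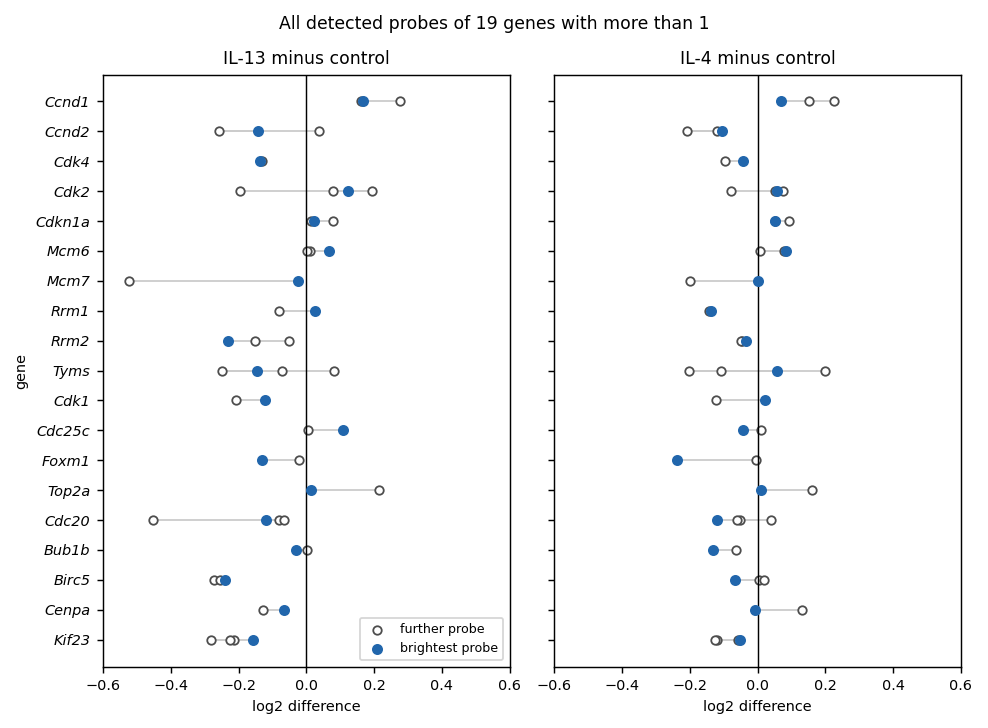
Log2 difference of every detected probe of the 19 genes with more than 1, IL-13 minus control on the left and IL-4 minus control on the right, with the brightest probe filled and further probes open. The probes of Ccnd1 lie above 0 in both panels, those of Birc5 and Kif23 below 0 with IL-13, and those of Mcm7 lie apart (-0.02 and -0.52 with IL-13).

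A wider list took in other genes of the cycle. Of 166 other listed genes (G1/S control and arrest, DNA replication, G2 and mitosis) 142 were tested. With IL-13 0 rose and 2 fell, with IL-4 0 rose and 1 fell, and for the mean of both 0 rose and 1 fell, where 5.73%, 3.47% and 6.14% of all genes passed in either direction. An unadjusted p under 0.05 was found in 19 of 142 with IL-13 (13.4%, beside 17.8% of all genes) and 7 with IL-4 (4.93%, beside 14.1%). Between IL-13 and IL-4, 0 passed and 7 of 142 had an unadjusted p under 0.05 (4.93%, beside 8.15%). With IL-13, 95 of 142 were below 0 (66.9%, median -0.05), beside 51.4% of all genes, and with IL-4 77 of 142 (54.2%, median -0.01), beside 53.5%. The lean with IL-13 was not limited to mitosis genes. Below 0 were 33 of 46 DNA replication genes (71.7%, median -0.06) and 46 of 67 G2 and mitosis genes (68.7%, median -0.06). Of the G1/S control and arrest genes, 16 of 29 were below 0 (55.2%, median -0.04).

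Ube2s, the E2 enzyme that extends the ubiquitin chains begun by UBE2C, was the gene called with IL-4 and for the mean of both (-0.28, adjusted p = 0.0319). It measured 5.48, 5.45, 5.40 and 5.46 with IL-13, 5.24, 5.26, 5.56 and 5.29 with IL-4, and 5.74, 5.85, 5.51 and 5.61 in control. The difference was -0.34 with IL-4 (adjusted p = 0.0404) and -0.23 with IL-13 (adjusted p = 0.161). IL-4 3 was above control 3, while the IL-13 arrays all lay below the control arrays. The IL-4 call held in 10 of 26 other settings and failed when the 3 hemoglobin-rich arrays were dropped (-0.30, adjusted p = 0.296), and also without IL-13 1, 2 or 4, IL-4 1, 2 or 4, or control 1 or 2. Over all 26 settings its difference ranged from -0.55 to -0.12. The call on the mean of both held in 13 of 25 settings and failed without the 3 hemoglobin-rich arrays (-0.27, adjusted p = 0.125), and without IL-13 2 or 3, IL-4 1, 2 or 4, or control 1 or 2.

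Kif18a, a motor that limits chromosome movement on the spindle, measured 5.68, 5.55, 5.61 and 5.75 with IL-13, 5.74, 5.86, 5.88 and 5.90 with IL-4, and 6.06, 5.96, 5.98 and 5.84 in control. Stmn1 (stathmin), which destabilises microtubules, measured 7.49, 7.67, 7.67 and 7.57 with IL-13, 7.67, 7.78, 7.81 and 7.81 with IL-4, and 7.76, 7.89, 7.85 and 8.07 in control. In both genes all IL-13 arrays lay below all control arrays, and the IL-4 arrays lay between or overlapped. With IL-13 Kif18a differed by -0.31 (adjusted p = 0.0179) and Stmn1 by -0.29 (adjusted p = 0.0379), against -0.12 and -0.13 with IL-4 (adjusted p = 0.529 and 0.53). The difference between the cytokines did not pass for either (adjusted p = 0.546 and 0.61). The Kif18a call held in 20 of 26 other settings and was lost without IL-13 2, IL-13 3 or control 1. It was also lost with the submitters' values (adjusted p = 0.0531) and on each chip alone. The Stmn1 call held in 15 of 26 and was lost without any 1 IL-13 array or control 2, 3 or 4. It was also lost on each chip alone and with only the 2 groups compared in the fit (adjusted p = 0.071). Without the hemoglobin-rich arrays Kif18a passed (-0.35, adjusted p = 0.0176) and Stmn1 did not (-0.23, adjusted p = 0.123).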

How the data were processed

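Total RNA from 12 samples was hybridised to Illumina mouse beadchips, 1 array each. The deposited table holds raw probe intensity values without normalisation and a detection p-value per probe and array, from GenomeStudio 2011.1 per the submitters' processing notes. The submitters' own processed log2 values, as deposited, equal the log2 intensity plus a constant per array (2.22 to 2.34) and served as an alternative. With limma 3.58.1 in R 4.3.3, neqc corrected the background from the detection p-values, added an offset of 16 and set common quantiles. A probe was kept where its detection p was under 0.05 on 4 or more arrays (19915 of 45281), and 1 probe stood for each gene, that of highest mean signal, from GEO's platform annotation (34885 probes with 1 symbol, 18 with several, 10378 with none or not listed). One linear model over all 12 arrays gave 4 comparisons with Benjamini-Hochberg adjustment over 10453 genes, and every adjusted p given is from limma. Values were printed per array for genes past the threshold, for the 2 genes of smallest p per role group for the mean of both cytokines, and for Top2a, Ccnd1, Cdkn1a and Pcna. The gene lists, the samples doubted and the alternatives were chosen with earlier results of these data known. Arrays of a group correlated at 0.993 to 0.997 and no arrays were identical. The code was tested on simulated data.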

Additional observations from a re-analysis of the deposited data

Results flagged for a closer look

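Among 72 sets of 4 arrays checked (the genes given per array and the role means), 6 held 1 array that stood apart from the other 3 by Dixon's criterion, and chance alone gives about 1 in 20. Foxm1 was at 7.72 on IL-4 4, with the other IL-4 arrays between 7.28 and 7.35. Rrm1 was at 8.93 on the same array, with the others between 9.10 and 9.12. IL-4 4 was also the array of highest hemoglobin signal (8.95), and whether this plays a part in either value was not tested. Rrm2 was at 8.69 on IL-4 3, with the others between 8.28 and 8.33. Kif11 was at 7.26 on IL-13 3, with the others between 6.84 and 6.90. Cdk2 was at 9.46 on control 3, with the others between 9.33 and 9.34. The mean of the G2 and mitotic entry genes, relative to the 12-array mean of each gene, was -0.11 on control 4, with the other control arrays between 0.06 and 0.09.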

How the results depend on the processing

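Ube2c kept its direction in 26 of 26 alternatives with IL-13 (log2 difference -0.31 to -0.13, adjusted p 0.0183 to 0.47), 26 of 26 with IL-4 (-0.34 to -0.14, adjusted p 0.0113 to 0.435) and 25 of 25 for the mean of both (-0.31 to -0.14, adjusted p 0.00406 to 0.25), and was called in 9, 17 and 23. The fit on only the groups compared cannot be made for the mean of both. Of the 39 listed genes, 1 passed with IL-13, 1 with IL-4, 1 for the mean of both and 0 between the cytokines. With IL-13 the count was 2 without background correction, with an offset of 50 and with no filter (Ube2c and Ccnd1), and 0 with 75th percentile scaling, the replicate block, chip 1 alone, chip 2 alone, without the 3 hemoglobin-rich arrays and with only the groups compared. With IL-4 it was 0 on chip 2 alone, without the hemoglobin-rich arrays and with only the groups compared. For the mean of both it was 2 without background correction, with the mean of all probes, with the submitters' values and on chip 1 alone, and 0 on chip 2 alone. Leaving out 1 array gave 0 to 1 with IL-13, 0 to 1 with IL-4, 0 between them and 1 to 2 for the mean.

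Of the 142 further genes, 2 passed with IL-13, 1 with IL-4 and 1 for the mean. With IL-13 the count was 6 without background correction, 5 with an offset of 50, 0 on chip 1 alone, and 1 on chip 2 alone, without the hemoglobin-rich arrays and with only the groups compared. With IL-4 it was 2 on chip 1 alone, and 0 without background correction, with an offset of 50, with no filter, with the submitters' values, with the replicate block, on chip 2 alone, without the hemoglobin-rich arrays and with only the groups compared. For the mean it was 9 with the submitters' values, and 3 without background correction, with detection p under 0.01 and with array weights. It was 2 with 75th percentile scaling, no filter, the mean of all probes, chip as a block and chip 1 alone. The replicate block, chip 2 alone and leaving out the hemoglobin-rich arrays gave 0. Leaving out 1 array gave 0 to 2 with IL-13, 0 to 2 with IL-4, 0 between them and 0 to 3 for the mean. The calls over all 10453 genes moved as well. For the mean they went from 642 to 803 with the submitters' values (206 higher and 597 lower), where the 9 were all lower. The count of 9 alone therefore does not set cell cycle genes apart. With IL-13 they went from 599 to 651 without background correction (271 lower) and 684 with an offset of 50 (283 lower). The others, 380 and 401, were higher, whereas the 6 and 5 were all lower. The cause of these moves was not tested, except that chips alone and left-out arrays use fewer samples.

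Over all 10453 genes, the counts of 599 (IL-13), 363 (IL-4) and 642 (mean) became 243 and 383 (IL-13 and mean) on chip 1 alone, 186, 101 and 193 on chip 2 alone, and 190 with IL-4 without the hemoglobin-rich arrays. Leaving out 1 array gave 409 to 593, 251 to 442 and 477 to 618, and 0 to 1 between the cytokines, where chip 1 alone also gave 1. Same-numbered arrays were not taken as pairs: their deviations correlated at -0.15 to 0.21, over 0.1 in 5 of 12 pairs, and 4 arrays correlated best with their own number. For Ube2c, Ube2s, Kif18a and Stmn1, no difference called over all 12 arrays reversed its sign in an alternative. The signs of the other called genes were not followed. Foxm1 for the mean of both was called on chip 1 alone (-0.41, adjusted p = 0.0271) and was 0.04 on chip 2 alone. Dim probes such as those of Ube2c and Cdkn1b lie near the offset, which limits the size of the differences that can be seen.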

Other observations

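Cdkn2a, which encodes the inhibitors p16 and p19Arf, was picked out after its values were seen. It measured 6.24, 6.47, 6.20 and 6.49 with IL-13, 6.80, 6.69, 6.66 and 6.60 with IL-4, and 6.39, 6.44, 6.53 and 6.52 in control. All IL-4 arrays lay above all IL-13 and all control arrays. The difference between IL-13 and IL-4 was -0.34 (adjusted p = 0.374), the smallest adjusted p between the cytokines among the 142 further cell cycle genes. With IL-4 it was 0.22 (adjusted p = 0.204) and with IL-13 -0.12 (adjusted p = 0.501).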
